A study of Mus musculus with 4 samples.

Results

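The class B G protein-coupled receptors for peptide hormones were examined across the cell types of the mouse lateral septum (LS), a forebrain region. The receptors were chosen by name. They were Crhr1, Crhr2, Glp1r, Calcr, Calcrl, Pth2r, Pth1r, Vipr1, Vipr2 and Adcyap1r1, 10 of the 32285 genes in the count tables. Single-nucleus RNA sequencing was used, in which each captured RNA molecule of a nucleus bears a barcode, its unique molecular identifier (UMI), so that molecules rather than reads are counted. There were 4 libraries of LS nuclei, each made from the pooled tissue of 3 male mice, whose age the labels give as 6 to 8 weeks. C57J 1 and C57J 2 came from C57BL/6JNifdc mice, nude from BALB/c nude mice, and BALB/c from BALB/c mice. Nude mice lack functional Foxn1 and with it a thymus and T cells, and they share the BALB/c strain background. C57J 1 was batch 1, and the other libraries were batch 2. The C57J libraries came from separate sets of mice.

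Class B receptors bind peptide hormones of about the size of glucagon. The peptide docks first on a large extracellular domain and then reaches into the membrane-spanning bundle, and most of these receptors signal mainly through the stimulatory G protein Gs and adenylyl cyclase, which makes cyclic AMP. Between them, Crhr1 and Crhr2 bind corticotropin-releasing hormone (CRH) and the urocortins. Glp1r binds glucagon-like peptide 1. Calcr binds calcitonin and, with a receptor activity-modifying protein (RAMP), amylin. Calcrl needs a RAMP to reach the cell surface and then binds calcitonin gene-related peptide (CGRP) or adrenomedullin. Pth1r and Pth2r bind parathyroid hormone family peptides, and Vipr1, Vipr2 and Adcyap1r1 bind vasoactive intestinal peptide (VIP) and pituitary adenylate cyclase-activating polypeptide (PACAP). In the LS, CRH type 2 and GLP-1 receptors are known for roles in anxiety-related behavior and feeding.

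The libraries held 12558 to 17025 barcodes with a median of 4429 to 8836 UMIs, of which BALB/c was the deepest. After quality limits and the removal of predicted doublets, 10913 to 13075 nuclei per library remained. Pairs of libraries shared 29 to 63 barcode sequences, at most 0.478% of the smaller library. LS neurons, named by Trpc4, Dgkg, Homer2 and Ptpn3, numbered 20512 nuclei and made up 62.3% to 69.8% of neurons per library. A further 8 neuron clusters, 15.1% to 20.7% of neurons, matched no marker list and are left unnamed. Foxn1, the gene altered in nude mice, had 2 to 6 UMIs per library, which is too few to check the labels. Levels below are UMIs of a gene per 1000000 UMIs of the nuclei named (CPM), summed per library. Where 4 levels follow one another they belong to C57J 1, then C57J 2, then nude, then BALB/c. They were compared over 31 places, namely 20 LS neuron clusters and 11 other classes with at least 20 nuclei in every library. A cluster is given by its number and the genes highest in it relative to the other clusters. All 10 receptor genes are protein-coding, their exons cover 2.41% to 19.2% of the gene span, and positions are on GRCm38.

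**Figure D1:**
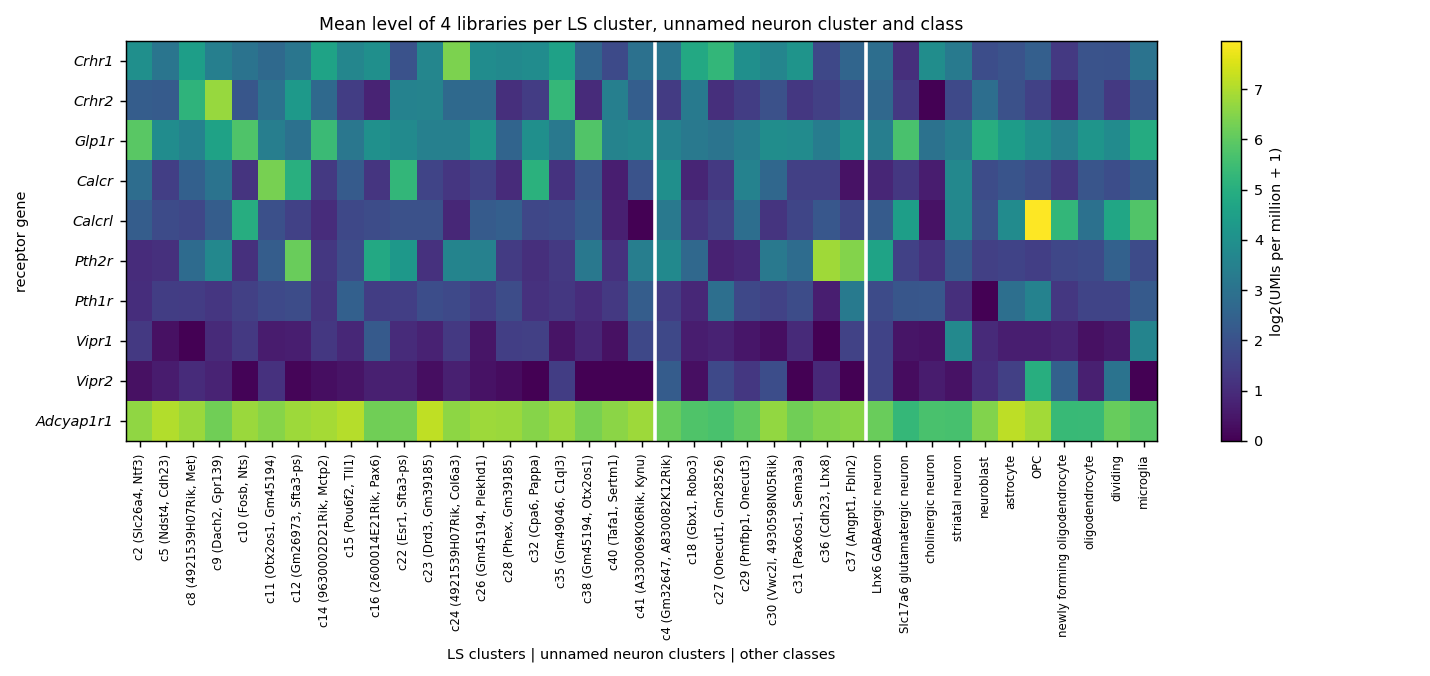
Mean level of the 4 libraries, as log2(CPM + 1), for the 10 receptors (rows) in LS clusters, unnamed neuron clusters and other classes (columns, divided by white lines). Among the LS clusters, Crhr1, Crhr2, Calcr and Pth2r are each highest in a different one, Pth2r is higher still in the unnamed clusters c36 and c37, Calcrl and Vipr2 peak in OPCs, and Adcyap1r1 is above 5 CPM in all 31 places compared.

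The CRH receptor genes each peaked in 1 LS cluster, and not in the same one. Crhr1 (ENSMUSG00000018634, chr11:104132855-104175523, plus strand, GRCm38) was highest in cluster c24, marked by 4921539H07Rik, Col6a3 and Stac2. Its level there was 100.9, 85.2, 71.3 and 73.3 CPM, with a mean of 82.7 ± 13.6 (SD, n = 4 libraries). Every library of c24 lay above every library of the other 30 places. The next places, c14 with a mean of 23.7 and c35 with 22.5, could not be told apart by their ranges. Among unnamed neurons, c27 (Onecut1, Gm28526) held Crhr1 at 24.3, 46.5, 34.9 and 45.6 CPM, a mean of 37.9 that only c24 exceeded among named places.

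Crhr2 (ENSMUSG00000003476, chr6:55090049-55133016, minus strand) was highest in cluster c9, marked by Dach2, Gpr139 and Kynu. Its level was 95.7, 118, 108 and 96.8 CPM, with a mean of 105 ± 10.7 (SD). All 30 other places lay wholly below. The next were c35 (Gm49046, C1ql3, Foxp2) with a mean of 38.1 and c8 (4921539H07Rik, Met, Stac2) with 35.5, and these 2 overlapped. The LS cluster c45 (Igf1, Col11a1), of 101 nuclei, was not among the places compared, because nude had only 17. It held Crhr2 at 21.4, 45.7, 29.0 and 76.0 CPM, a mean of 43.0 from 49 UMIs. In c24, where Crhr1 peaked, Crhr2 had 3.84 to 9.65 CPM. In c9, where Crhr2 peaked, Crhr1 had 8.92 to 12.2 CPM. The 155 cholinergic nuclei held 0 UMIs of Crhr2.

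The sequences upstream of the annotated starts of these 2 genes are shown because the receptors are close relatives with different leading clusters. They are the 250 bases before the RefSeq start on GRCm38.p6, read 5′ to 3′ on the gene's strand. Capitals mark a TATA box (TATAAA). Crhr1 is from chr11:104132531-104132780 (plus strand) and Crhr2 from chr6:55133017-55133266 (minus strand).
Crhr1: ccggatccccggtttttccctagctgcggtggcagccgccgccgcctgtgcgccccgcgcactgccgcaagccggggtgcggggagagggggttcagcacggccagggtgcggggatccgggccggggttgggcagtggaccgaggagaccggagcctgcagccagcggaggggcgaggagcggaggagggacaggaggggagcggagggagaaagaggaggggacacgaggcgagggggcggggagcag
Crhr2: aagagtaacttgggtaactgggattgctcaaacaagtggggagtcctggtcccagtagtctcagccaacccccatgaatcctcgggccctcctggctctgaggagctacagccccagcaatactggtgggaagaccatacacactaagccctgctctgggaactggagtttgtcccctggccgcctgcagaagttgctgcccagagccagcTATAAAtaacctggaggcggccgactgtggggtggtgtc
The Crhr1 sequence holds 25 CG pairs and 74.8% G or C, and 89.3% of the 32851 RefSeq promoter sequences of this length hold fewer CG pairs. The Crhr2 sequence holds 4 CG pairs and 57.6% G or C, against a median of 6 pairs and 52.4% over all promoters. The TATAAA motif, searched on both strands, is present in the Crhr2 sequence and absent from that of Crhr1, and 12.4% of all promoters hold it. The cyclic AMP response element TGACGTCA, which reads the same on both strands, is in none of the 13 upstream sequences of the 10 receptors and in 1.55% of all promoters. These are letters in a window, not tested sites.

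Glp1r (ENSMUSG00000024027, chr17:30901817-30940791, plus strand) had no single peak. It was highest in c2 (Slc26a4, Ntf3, 2310002F09Rik), with 90.7, 66.3, 31.2 and 53.2 CPM. The mean of 60.4 did not separate from c38 (Gm45194, Otx2os1, Esr1) with 55.3, c10 (Fosb, Nts, C230014O12Rik) with 53.1, Slc17a6 glutamatergic neurons with 50.4 or c14 (9630002D21Rik, Mctp2, Cpa6) with 42.1. All libraries of c2 lay above those of 21 of the 30 other places. The mean level passed 5 CPM in 30 of the 31 places, and its lowest class was cholinergic neurons at 7.09. The share of nuclei with a Glp1r UMI, at 1000 UMIs a nucleus, was 2.21% in astrocytes and 3.17% in microglia, against 2.06% in LS neurons. Free RNA was not measured here, so levels spread over many places, of Glp1r or of Adcyap1r1, are not read as expression in each of them.

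The calcitonin family receptors divided between neurons and glia. Calcr (ENSMUSG00000023964, chr6:3685680-3764714, minus strand) was highest in c11 (Otx2os1, Gm45194, Reln), with 73.5, 78.0, 84.3 and 79.2 CPM. This narrow range, with a mean of 78.7 ± 4.44 (SD), lay above all libraries of the other 30 places. It was followed by c22 (Esr1, Sfta3-ps, Gm26973) with 37.7, c32 with 33.2 and c12 with 31.5, which overlapped one another and were apart from striatal neurons at 12.1. The mean passed 5 CPM in 7 of 31 places.

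Calcrl (ENSMUSG00000059588, chr2:84330626-84425411, minus strand) was highest in glia. In oligodendrocyte precursor cells (OPCs) it had 206, 191, 259 and 340 CPM, and the mean of 249 was 84.3 times the median place. Microglia followed with 34.1, 51.3, 29.0 and 106 CPM. Among LS clusters it was highest in c10, at 31.7, 43.3, 23.7 and 21.7. The vascular classes were too small for the comparison, but 61 endothelial nuclei held 26 UMIs (142 CPM, 95% exact Poisson interval 92.8 to 208, counting error only) and 64 fibroblast nuclei held 42 (223 CPM, 161 to 302). Calcrl was low in LS neurons as a class, at 5.34, 5.91, 4.14 and 4.02 CPM.

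The RAMP genes, whose products decide which peptide Calcrl binds, followed Calcrl only in part. Ramp1, which makes Calcrl a CGRP receptor, was at 70.2, 67.3, 83.1 and 109 CPM in OPCs, and at 70.1, 68.5, 45.3 and 61.8 in astrocytes. Striatal neurons had 54.6, 48.7, 42.5 and 69.0 CPM of Ramp1 with 8.28 to 16.5 of Calcrl. LS neurons had 8.35, 7.23, 5.69 and 4.71 of Ramp1. Ramp2, which makes Calcrl an adrenomedullin receptor, was at 377, 132, 258 and 621 CPM in endothelial nuclei, and at 7.02 to 12.2 in OPCs. Ramp3 stayed at or below 3.16 CPM in LS neurons, striatal neurons, astrocytes, OPCs, oligodendrocytes and microglia.

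**Figure D2:**
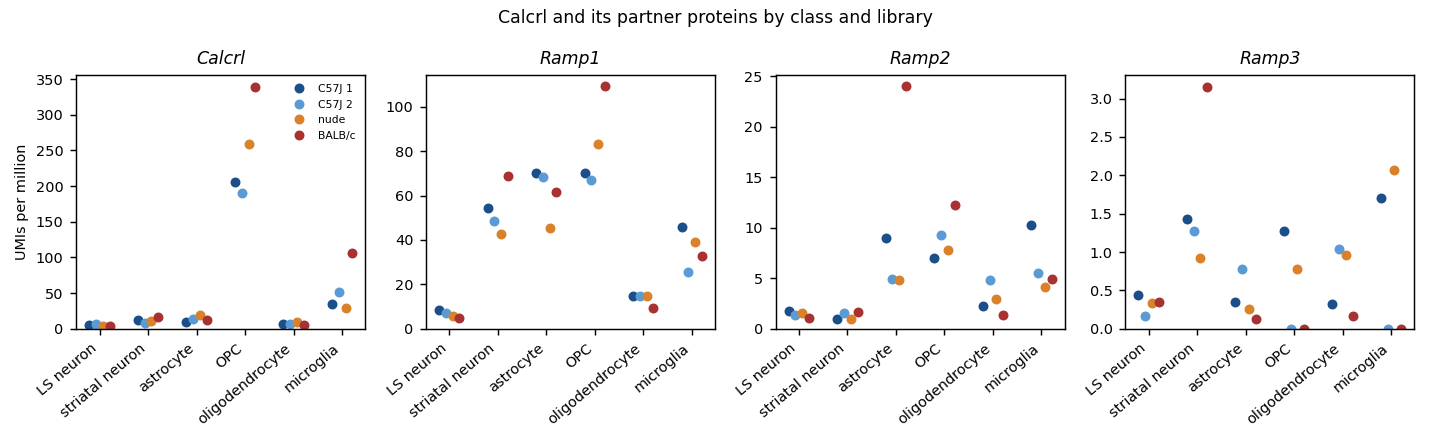
CPM of Calcrl, Ramp1, Ramp2 and Ramp3 in 6 classes (horizontal axis), 1 point per library, each panel with its own vertical scale from 0. Calcrl is highest in OPCs (191 to 340), where Ramp1 is 67.3 to 109, whereas Ramp1 is also high in astrocytes and striatal neurons.

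The parathyroid hormone receptor genes had different places. Pth2r (ENSMUSG00000025946, chr1:65282056-65389244, plus strand) was highest among named places in c12 (Gm26973, Sfta3-ps, Nxph1), with 60.5, 53.8, 73.2 and 93.7 CPM. The other 30 places lay wholly below, led by c16 with a mean of 26.8 and Lhx6 GABAergic neurons with 23.8. The unnamed neuron clusters c36 (Cdh23, Lhx8) and c37 (Angpt1, Fbln2) had higher means, but their ranges overlapped that of c12. In BALB/c both were below c12. Cluster c36 had 119, 137, 116 and 82.8 CPM and c37 had 113, 85.2, 102 and 58.0.

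Pth1r (ENSMUSG00000032492, chr9:110722085-110747145, minus strand) was low. OPCs led with 16.0, 10.9, 6.99 and 7.91 CPM, which came from 69 UMIs in 1906 nuclei, and overlapped astrocytes at a mean of 6.49. Mural nuclei, cells of the vessel wall, held 17 UMIs in 77 nuclei (117 CPM, 68.4 to 188) and endothelial nuclei 11 UMIs in 61 (60.1 CPM). Part of the gene, 5285 bases, overlaps Myl3 on the other strand.

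Of the VIP and PACAP receptor genes, Vipr1 and Vipr2 had a mean over 5 CPM in 2 of the 31 places each, whereas Adcyap1r1 passed 5 in every library of all 31. Vipr1 (ENSMUSG00000032528, chr9:121642716-121672954, plus strand) was highest in striatal neurons, at 10.4, 15.3, 7.85 and 16.8 CPM. Microglia had 11.9, 7.33, 14.5 and 10.97 CPM of Vipr1 from 27 UMIs and were not apart from striatal neurons, and no other place had a mean over 5. Vipr2 (ENSMUSG00000011171, chr12:116077726-116146261, plus strand) was highest in OPCs, at 21.7, 23.5, 35.7 and 41.7 CPM, above all libraries of the 30 other places. Dividing cells followed at a mean of 7.27. LS neurons had 0.24 to 0.89 CPM of Vipr2. The 1358 microglia held 0 UMIs of it.

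Adcyap1r1 (ENSMUSG00000029778, chr6:55451978-55501451, plus strand), the receptor for PACAP, had 123, 98.8, 96.4 and 105 CPM in LS neurons. Its highest place was c23 (Drd3, Gm39185, Lncenc1) with 172, 116, 137 and 161, next to astrocytes with 157, 130, 144 and 137. These did not separate, and c23 was only 1.56 times the median place. The lowest place was Slc17a6 glutamatergic neurons with a mean of 38.1.

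**Figure D3:**
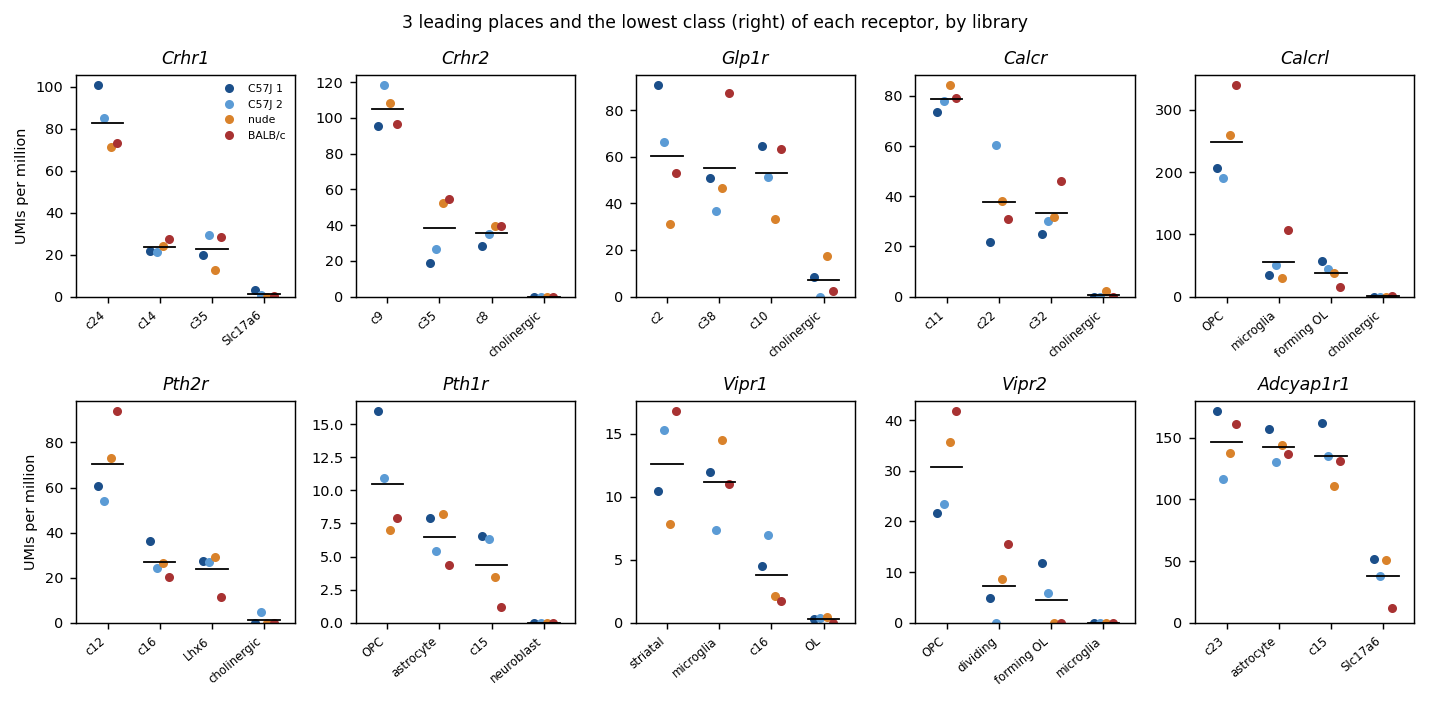
CPM of each receptor (1 panel each, own vertical scale from 0) in its 3 highest places and, at the right, its lowest class, 1 point per library with the mean as a bar. The leading place stands clear of the next in Crhr1, Crhr2, Calcr, Calcrl, Pth2r and Vipr2, and overlaps it in Glp1r, Pth1r, Vipr1 and Adcyap1r1.

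The question of which receptors are neuronal was tested by summing UMIs per library over all neurons and over astrocytes, oligodendrocytes, OPCs and microglia, with library as a block. The test was edgeR's quasi-likelihood test over all genes, and genes count as called where p, adjusted by Benjamini and Hochberg's method, was under 0.05 and the log2 fold change exceeded 0.5 in either direction. Of the 10 receptors, 5 were higher in neurons, beside 27% of all genes tested, and 3 were higher in glia, beside 27.7%. The median of the 10 was 0.78 on the log2 scale, beside 0.02 over all genes. Pth2r was higher in neurons by 2.59 ± 0.22 (SE, adjusted p = 6.08e-05), with 9.03 to 11.6 CPM in neurons and 1.46 to 4.00 in glia. Crhr1 was higher by 2.33 ± 0.21 (adjusted p = 6.85e-05) and Crhr2 by 2.30 ± 0.14 (adjusted p = 1.7e-05). Calcr was higher by 2.02 ± 0.29 (adjusted p = 0.000679), and Vipr1, from low counts, by 1.05 ± 0.31 (adjusted p = 0.0202). The Vipr1 levels overlapped, with 2.23, 2.33, 1.16 and 1.81 CPM in neurons and 1.00, 1.06, 1.55 and 0.74 in glia. In nude the Vipr1 level was higher in glia. The mean of Vipr1 was 1.12 CPM in LS neurons, 12.6 in striatal neurons and 11.2 in microglia. The call of Vipr1 was lost without C57J 1 (0.93) and without C57J 2 (0.95).

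Calcrl was higher in glia, with a log2 fold change of neurons over glia of -2.96 ± 0.25 (adjusted p = 6.12e-05). Its level was 37.8, 38.3, 57.02 and 65.5 CPM in glia against 6.40, 6.26, 4.41 and 4.73 in neurons, and the groups did not overlap. Vipr2 (-2.70 ± 0.32) and Pth1r (-1.17 ± 0.17) were also higher in glia, with adjusted p of 0.000272 and 0.000675. Glp1r (0.52 ± 0.23, adjusted p = 0.0754) and Adcyap1r1 (0.07 ± 0.07, adjusted p = 0.369) were not called. Glp1r was called by DESeq2 (0.55) and without the low-count filter (0.58), and its value fell to 0.10 with nuclei thinned to 1000 UMIs and to 0.18 without BALB/c. Without TMM normalization the median of all genes moved from 0.02 to -0.19, and Adcyap1r1 moved with it to -0.14. The split of called genes then went from 4984 higher in neurons and 5113 higher in glia to 3922 and 6436.

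A second comparison asked which receptors were higher or lower in LS neurons than in all other named neurons, again with library as a block. The unnamed neurons were left out. Among them, c36 and c37 had a higher mean of Pth2r than any LS cluster compared. Cluster c27 had a higher mean of Crhr1 than any LS cluster compared except c24. Higher in LS neurons were 5 of 10 receptors, beside 10.9% of all genes tested, and lower were 2, beside 12.4%. Crhr2 differed most, with 13.4, 16.7, 17.1 and 16.3 CPM in LS neurons and 2.43, 2.39, 1.99 and 2.30 in the others (log2 fold change 2.78 ± 0.13, adjusted p = 1.01e-06). Adcyap1r1 was higher by 1.17 ± 0.09 (adjusted p = 1.28e-05), Crhr1 by 1.09 ± 0.14 (adjusted p = 0.000329) and Pth2r by 1.01 ± 0.26 (adjusted p = 0.0122). Glp1r was called at 0.50 ± 0.13 (adjusted p = 0.0157), at the limit of the fold change. Its levels overlapped, with 15.9 to 35.2 CPM in LS neurons and 16.2 to 19.4 in the others, and its call was lost under alternatives that included DESeq2 (0.49) and leaving out C57J 1 (0.32) or C57J 2 (0.44). That of Pth2r was lost without C57J 2 (1.04).

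Vipr1 was lower in LS neurons, by -2.82 ± 0.22 on the log2 scale (adjusted p = 1.54e-05), and so was Calcrl, by -1.25 ± 0.17 (adjusted p = 0.000497). Calcr (0.39 ± 0.20), Vipr2 (0.20 ± 0.57) and Pth1r (0.13 ± 0.22) were not called. Striatal neurons were 81.0% of the other named neurons in C57J 1 and 53.1% to 61.3% in the batch 2 libraries. The part of this makeup in the differences was not tested.

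**Figure D4:**
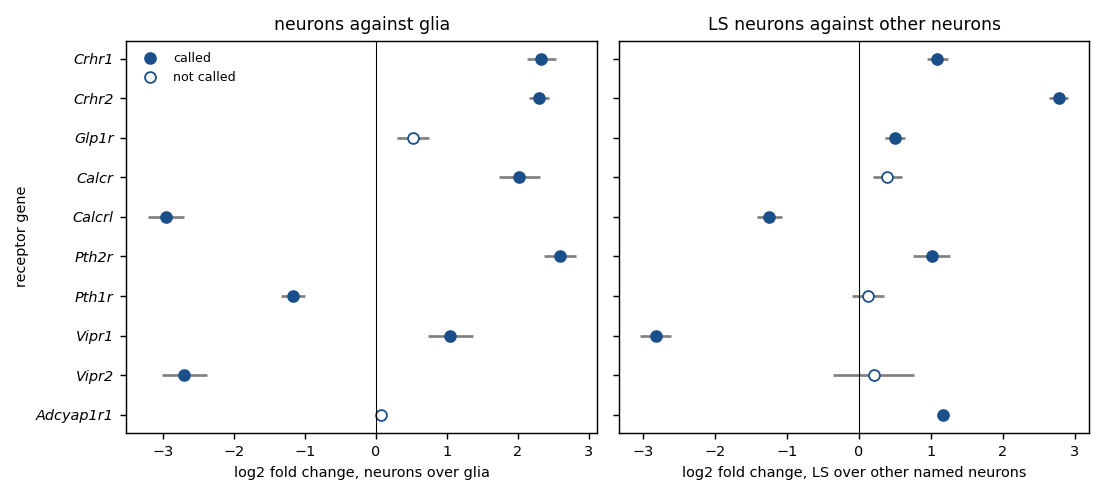
Log2 fold change with its standard error (grey line) for each receptor, neurons over glia at left and LS neurons over other named neurons at right, from 4 libraries. Filled points were called and open points were not. Calcrl is negative in both panels, Crhr1, Crhr2 and Pth2r are positive and called in both, and Vipr1 changes side.

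The ligand genes were low in these nuclei. Of 18 ligand genes, none passed 5 CPM in every library in a named class. Among unnamed neurons, c4 (Gm32647, A830082K12Rik, Pde11a) held Crh at 14.1, 7.39, 17.3 and 21.0 CPM, and c29 (Pmfbp1, Onecut3, Gm12082) held Adcyap1, which encodes PACAP, at 6.56, 6.36, 6.95 and 5.54. Over all genes tested, 27% were called higher in neurons and 27.7% in glia. Against other neurons, 10.9% were called higher and 12.4% lower in LS neurons. In LS neurons against other neurons 4 ligand genes were tested and 3 were lower, namely Vip (-3.49 ± 0.43), Pthlh (-2.52 ± 0.48) and Adcyap1 (-2.43 ± 0.46). Between neurons and glia 6 were tested and 1 was called, Adm, which encodes adrenomedullin and was higher in glia (-3.08 ± 0.32). Of 4 partner genes (the RAMPs and Crhbp, which encodes the CRH-binding protein), 2 were lower in LS neurons, Ramp1 by -2.44 ± 0.15 and Ramp3 by -2.08 ± 0.33, and 2 were higher in glia than in neurons, Ramp1 (-2.13 ± 0.16, neurons over glia) and Ramp2 (-2.17 ± 0.33). Against glia, 7 of 10 genes of Gs and adenylyl cyclase were higher in neurons. Gnal, a stimulatory G protein subunit abundant in striatal neurons, led with 1.69 ± 0.14, and the adenylyl cyclase genes Adcy1 and Adcy8 followed with 1.44 ± 0.18 and 1.17 ± 0.13. Between LS and other neurons, 2 of the 10 were higher in LS, Adcy6 (0.65 ± 0.08) and Adcy1 (0.64 ± 0.10), and 2 were lower, Adcy5 (-0.88 ± 0.10) and Adcy7 (-0.62 ± 0.18). Of 5 other class B receptor genes, 3 were tested between neurons and glia. Glp2r was higher in neurons (2.09 ± 0.29) and Sctr, the secretin receptor, in glia (-4.60 ± 0.30).

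The study compares mice of different immune and strain backgrounds, so the 2 C57J libraries were set against nude and BALB/c in each class. A positive log2 fold change is higher in nude and BALB/c. Strain, immune state and library cannot be told apart with 1 library each of nude and BALB/c. None of the receptors was called. In LS neurons all 10 were tested and 0 called, where 2.2% of all genes were, although 3 had an unadjusted p below 0.05 and DESeq2 called 1, Glp1r. The figures were 0 of 9 in other neurons (0.409% of genes called), 0 of 8 in astrocytes (0.0638%), 0 of 5 in oligodendrocytes (0.0636%), 0 of 5 in OPCs (0.257%) and 0 of 3 in microglia (0%). At an unadjusted p below 0.05 there were 0, 1, 1, 3 and 1 receptors in the same order, and DESeq2 called 0 in each. Over all genes in microglia, edgeR called 0 of 8842, with 457 at an unadjusted p below 0.05, and DESeq2 called 14.

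Each receptor was also tested within its own leading LS cluster. There were 8 tested and 0 called by edgeR, with 4 at an unadjusted p below 0.05 and 1 called by DESeq2, again Glp1r. The share of all genes called was 1.55% in c24 (Crhr1), 1.15% in c9 (Crhr2), 1.8% in c2 (Glp1r), 0.84% in c11 (Calcr), 1.02% in c10 (Calcrl), 1.12% in c12 (Pth2r), 1.08% in c15 (Pth1r) and 1.35% in c23 (Adcyap1r1). Vipr1 in c16 and Vipr2 in c35 were below the filter on low counts, and 0.717% and 0.915% of genes were called there. Crhr2 in c9 differed by -0.02 ± 0.14, Adcyap1r1 in c23 by 0.04 ± 0.17, Calcr in c11 by 0.11 ± 0.14 and Crhr1 in c24 by -0.32 ± 0.15. Calcrl in c10 differed by -0.66 ± 0.21 (adjusted p = 0.275) and Pth1r in c15 by -1.51 ± 0.54 (adjusted p = 0.303, from 46 UMIs).

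Levels of Glp1r in LS neurons and 4 glial classes were apart between backgrounds, with the C57J pair higher. The backgrounds overlapped in the other named neurons, tested as a group, at 19.4, 16.9, 16.2 and 17.9 CPM. The log2 fold change there was -0.08 ± 0.20 (adjusted p = 0.930). The main edgeR test called Glp1r in none of these classes, and DESeq2 called it in LS neurons only. In LS neurons it had 35.2, 26.3, 15.9 and 20.1 CPM. The nude and BALB/c libraries both lay below both C57J libraries, and the log2 fold change was -0.75 ± 0.19 (adjusted p = 0.128). In its leading cluster c2 the change was -0.89 ± 0.23 (adjusted p = 0.137). Astrocytes had 33.7, 24.9, 14.8 and 6.28 CPM (-1.48 ± 0.40, adjusted p = 0.438), and the values were also apart in oligodendrocytes (-1.36 ± 0.48), OPCs (-1.005 ± 0.42) and microglia (-1.26 ± 0.46), with adjusted p of 0.852, 0.622 and 0.935. Over the 31 places, nude and BALB/c lay wholly below C57J in 16 and wholly above in 1, and overlapped in 14. The places share the same 4 libraries and are not independent. Shares over all genes were taken from the 15602 genes above 5 CPM in any place. Nude and BALB/c lay wholly below in 20.2% of the gene and place pairs and wholly above in 15.1%. Of these genes, 6.08% were wholly below in at least as many places as Glp1r. Pth1r was wholly below in 11 places, Calcrl in 8, and the other receptors in 0 to 6, while Pth2r was wholly above in 9 and Vipr2 in 8. In c10 (-0.19 ± 0.27) and in Slc17a6 glutamatergic neurons (65.4, 38.03, 48.3 and 49.8 CPM) they overlapped. C57J 1, the only batch 1 library, was the highest in LS neurons, astrocytes, oligodendrocytes, OPCs and microglia. Within batch 2, without that library, the LS value was -0.50. Glp1r was called in LS neurons without C57J 2 (-0.96), in c2 without C57J 2 (-1.11) or BALB/c (-1.31), and without nude in astrocytes (-2.10), oligodendrocytes (-1.63) and microglia (-1.57). Without C57J 2, the only C57J library is of batch 1 and the others are of batch 2, so background and batch cannot be told apart. Without BALB/c, 1 nude library stands against C57J. With nude left out, 1 BALB/c library stands against C57J and is assumed to vary as that pair does. The calls over all genes then rose from 9 to 826 in astrocytes, from 8 to 1043 in oligodendrocytes and from 0 to 879 in microglia.

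**Figure D5:**
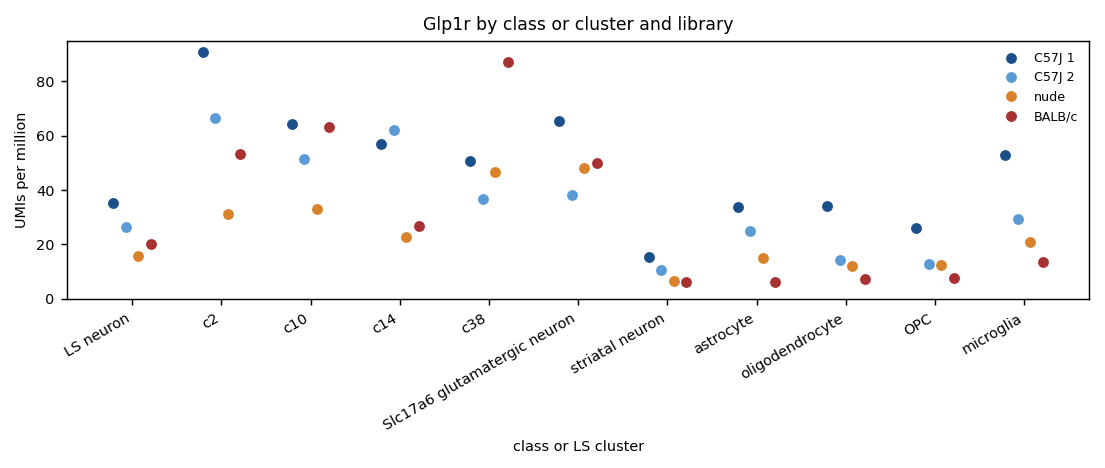
CPM of Glp1r (vertical axis from 0) in LS neurons, the LS clusters where it was highest and other classes, 1 point per library. In LS neurons, astrocytes, oligodendrocytes, OPCs and microglia both orange and red points (nude and BALB/c) lie below both blue points (C57J), and in c10, c38 and Slc17a6 glutamatergic neurons they overlap.

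A gene on the opposite strand overlaps Glp1r. Gm10503 (chr17:30920338-30963220, minus strand) shares 20454 bases with Glp1r, and the sources used here do not state whether counting used strand, so reads of the pair may not be fully told apart. Gm10503 was chosen for this overlap after its values were seen. It moved the opposite way, with 1.87, 2.85, 9.07 and 8.47 CPM in LS neurons (1.93 ± 0.24, edgeR adjusted p = 0.0123). In astrocytes it had 1, 1, 34 and 67 UMIs. In all 31 places both nude and BALB/c lay above both C57J libraries. The sum of Glp1r and Gm10503 in LS neurons was 37.1, 29.1, 24.9 and 28.6 CPM, and nude and BALB/c still lay below C57J, by a narrow margin. In c2 the sum was 95.3, 73.8, 44.2 and 61.7. In striatal neurons, where Glp1r alone was apart, the sums of 15.4, 10.8, 15.2 and 15.3 overlapped. The sums also overlapped in oligodendrocytes (34.1, 14.1, 21.2 and 11.9) and OPCs (26.2, 12.6, 21.0 and 13.7). They stayed apart in astrocytes (33.9, 25.2, 23.5 and 14.7) and, narrowly, in microglia (52.9, 29.3, 29.0 and 25.6). The part of Gm10503 in the Glp1r values was not tested.

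Other receptors whose libraries were apart in LS neurons or OPCs did not pass the test either. Over all genes, 20.2% of the gene and place pairs were wholly below and 15.1% wholly above, as given above. Calcrl in OPCs was at 206 and 191 CPM in C57J and at 259 and 340 in nude and BALB/c (0.67 ± 0.19, adjusted p = 0.318). In LS neurons it was at 5.34 and 5.91 against 4.14 and 4.02 (-0.44 ± 0.18, adjusted p = 0.347). Ramp1 showed the same arrangement, with 70.2 and 67.3 against 83.1 and 109 CPM in OPCs (0.58 ± 0.21, adjusted p = 0.522) and 8.35 and 7.23 against 5.69 and 4.71 in LS neurons (-0.56 ± 0.19, adjusted p = 0.243). BALB/c was the deepest library and the highest for both genes in OPCs. Vipr2 in OPCs was at 21.7 and 23.5 against 35.7 and 41.7 CPM (0.87 ± 0.25, adjusted p = 0.342), and in LS neurons at 0.24 and 0.28 against 0.89 and 0.62 (1.54 ± 0.39, adjusted p = 0.126). Without nude, Calcrl (0.89) and Vipr2 (1.01) passed in OPCs, in a fit with 1 BALB/c library against C57J in which the calls over all genes rose from 28 to 417. Pth1r, at low counts, lay the other way, with 16.0 and 10.9 against 6.99 and 7.91 CPM in OPCs from 69 UMIs (-0.77 ± 0.39, adjusted p = 0.706) and 2.22 and 2.60 against 2.12 and 1.27 in LS neurons (-0.50 ± 0.31, adjusted p = 0.549). It was also lower in both in microglia, from 9 UMIs, and in striatal neurons, from 21. Vipr1, also at low counts, had 1.10 and 1.58 against 0.96 and 0.85 CPM in LS neurons (-0.53 ± 0.31, adjusted p = 0.515). Vipr2 was higher in both nude and BALB/c in astrocytes and, from 9 UMIs, lower in both in oligodendrocytes. Gm20658, which shares 35880 bases with Vipr2 on the other strand, had 1.28, 4.20, 10.1 and 5.76 CPM in OPCs, and the reads of the pair may not be fully told apart.

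Pth2r in c12 was at 60.5 and 53.8 CPM in C57J and at 73.2 and 93.7 in nude and BALB/c (0.56 ± 0.16, adjusted p = 0.168), and in all LS neurons at 8.09 and 8.99 against 10.5 and 12.01 (0.43 ± 0.16, adjusted p = 0.280). Crhr2 was at 18.8 and 26.6 CPM in C57J and at 52.5 and 54.7 in nude and BALB/c in the smaller cluster c35 (1.30 ± 0.29, adjusted p = 0.0517). These values came from 16, 20, 38 and 54 UMIs. The c35 value of Crhr2 was singled out after it was seen.

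Among the genes listed as ligands, partners and signaling components, few differed between backgrounds. In LS neurons 1 of 10 Gs and cyclase genes was called, where 2.2% of all genes were. It was Adcy7, an adenylyl cyclase, at 2.22 and 2.37 CPM in C57J and 4.89 and 4.96 in nude and BALB/c (1.13 ± 0.20, adjusted p = 0.0474). None of the 4 ligand, 4 partner and 3 other receptor genes tested there was called. Within single clusters, Crhbp was lower in c16 (-3.86 ± 0.70, adjusted p = 0.0316), with 11 and 10 UMIs in C57J and 1 each in nude and BALB/c. In c35 Adcy2 was lower (-2.71 ± 0.18, adjusted p = 2.65e-06) and Gnal higher (0.60 ± 0.13, adjusted p = 0.0459).

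Shares of nuclei with a UMI were compared after thinning each nucleus to 1000 UMIs, which left out 2 LS neurons. In c9, 156 of 1512 nuclei had a Crhr2 UMI, or 10.3% (95% exact binomial interval 8.83% to 11.96%, counting error only), against 46.9% unthinned at a median of 7656 UMIs. Crhr2 was in 0 of 155 cholinergic nuclei, with an exact upper limit of 2.35%. Crhr1 was in 6.94% of c24 and in 1 of 1022 Slc17a6 nuclei (0.0978%). Calcr was in 5.72% of c11, and Pth2r in 5.96% of c12 and 9.33% of c36. Glp1r was in 4.63% of c2 (3.79% to 5.59%) and in 2 of 155 cholinergic nuclei (1.29%). Calcrl was in 22.2% of OPCs (20.3% to 24.1%), against 0.522% of LS neurons. Adcyap1r1 was in 14.7% of c23 and 4.21% of Slc17a6 nuclei.

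At this depth, 1613 of 20510 LS neurons (7.86%) had a UMI of at least 1 of the 9 receptors other than Adcyap1r1. By library the shares were 8.49%, 7.85%, 7.31% and 7.87%, in the order used above. Of these nuclei 35 had 2 of the 9 receptors and 1 had more, 0.176% of LS neurons. At 2000 UMIs per nucleus, Crhr1 and Crhr2 were found together in 14 nuclei, where the product of their shares gives 17.1. Crhr2 and Glp1r were together in 7, where the product gives 25.8. Glp1r and Calcrl were together in 21, where the product gives 7.88, and 13 of these lay in c10, where both were among their higher levels and the product of shares within that cluster gives 7.15. Crhr1 and Pth2r were together in 17, where the product gives 9.90. The pairs were picked after their counts were seen, and the counts were not tested.

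The genes most like each receptor over the 31 places were ranked by Pearson correlation of log2(CPM + 1) among 15572 genes, as a description over places that share libraries and depth. For Calcr they were Asb4 (r = 0.78), Peg10 (0.71) and Gm14697 (0.60), and Asb4 and Peg10 lie on the same chromosome as Calcr, 1619 and 983 kb away. For Vipr2 they were Gm20658 (0.89), which overlaps it, Pdgfra (0.87), an OPC marker that was used to name the class, and 6030407O03Rik (0.86). For Calcrl they were Tmem100 (0.83), Cspg4 (0.81), also a naming marker, and Tgfa (0.80). For Crhr1 they were Hectd2 (0.82), Palmd (0.80) and Nab1 (0.79), and for Crhr2 Focad (0.68), 4933428C19Rik (0.66) and Rab38 (0.65). Glp1r was followed by Gm10503 (0.69), which overlaps it, Gm50250 (0.58) and 4931429P17Rik (0.56). Pth2r was followed by B230216N24Rik (0.70), Moxd1 (0.70) and Hs6st3 (0.62). Adcyap1r1 was closest to 9330179D12Rik (0.88), Shc3 (0.85) and Ntrk2 (0.84), Pth1r to Hykk (0.73), Gm15511 (0.73) and Chpt1 (0.71), and Vipr1 to Fam102b (0.77), Kcnj4 (0.72) and Smpdl3b (0.72).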

How the data were processed

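Nuclei of 4 libraries were analysed. The submitters' processing notes name Cell Ranger 7.0.1 and mm10. The authors deposited raw UMI counts per gene for filtered barcodes, without normalization; intron counting and strand use are not given in the sources used here. Barcodes with over 200 and under 6000 genes, over 300 and under 50000 UMIs and under 2% mitochondrial UMIs were kept, as in the study. Doublets were predicted per library from simulated doublets and removed at 0.8% per 1000 nuclei.

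Leiden clustering (resolution 1; 3000 variable genes, 40 components, 6 neighbours from every library) left out 47 genes (the receptors and the ligand, partner and signaling lists), 93 genes that differed between backgrounds and 6 sex-linked genes. Classes were named from fixed markers; the score limits (0.25 for LS neurons, 0.5 for other classes) were set after the clusters were seen. UMIs were summed per library and class and tested with edgeR 4.0.16 in R 4.3.3 (quasi-likelihood test, filterByExpr, TMM, Benjamini-Hochberg over all genes tested), all 4 libraries in each fit. Within a class contrast, library was a block. Mice of a library were pooled, so p-values measure the spread between libraries, and 2 against 2 libraries cannot reach 0.05 in an exact permutation test. SE was the log2 fold change over the square root of F. Means ± SD are over 4 libraries. Intervals on shares and on summed counts are exact. The tests were also run on counts simulated from each gene's mean and fitted spread, with known changes added. That simulation held no difference between batches or between nude and BALB/c. It does not show how the p-values behave in these libraries.

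The receptors and gene lists were chosen with earlier results of these data known. Named were all receptors, each RAMP, list genes called between backgrounds, ligands over 5 CPM in every library of a class or cluster, and the 3 genes most like each receptor; the remaining genes of those lists and Gm10503, Gm20658 and Myl3 were named after their values were seen. Gene positions are GENCODE on GRCm38 and promoters RefSeq GRCm38.p6. Alternatives were DESeq2 1.42.0, no low-count filter, no TMM, the adjusted p alone, each library left out, doublets kept, stricter limits on nuclei (over 500 genes and 1000 UMIs), thinning to 1000 UMIs, resolution 2, the mean over nuclei and 2000 UMIs for shares.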

Additional observations from a re-analysis of the deposited data

Results flagged for a closer look

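Calcrl stood out because its nude and BALB/c libraries both lay above both C57J libraries in OPCs and both lay below them in LS neurons. The log2 ratio of the mean levels, nude and BALB/c over C57J, was 0.59 in OPCs and -0.46 in LS neurons, so the 2 classes differed by 1.05. The difference between the classes was not tested. Over all genes, nude and BALB/c lay wholly below C57J in 20.2% of the gene and place pairs and wholly above in 15.1%. The share of genes with opposite arrangements in these 2 classes was not computed, so the pattern is not read as particular to Calcrl. With 1 or 2 libraries per group, no library could be examined as an outlier within its group.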

How the results depend on the processing

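No paired analysis was possible because nude and BALB/c have 1 library each and share only replicate number 1 with C57J. Of the values of single receptors recomputed under the alternatives, 410 kept their direction and their side of the threshold, 21 passed it newly, 9 no longer passed it and 11 changed sign, and the cause was not tested. In LS neurons the count of receptors called between backgrounds went from 0 to 1 with DESeq2 and 2 without the low-count filter, and to 0 to 1 with a library left out. Without the filter it was 1 in astrocytes, 1 in oligodendrocytes and 1 in OPCs, and with a library left out it was 0 to 1, 0 to 2 and 0 to 2, and 0 to 3 in microglia, with the highest counts without nude. In the leading clusters it was 1 with DESeq2, 2 without the filter and 0 to 1 with a library left out. Glp1r was the receptor called in LS neurons by DESeq2, without the filter and without C57J replicate 2 (-0.96), and its values with a library left out ranged from -0.96 to -0.50 there and from -1.31 to -0.57 in c2. The count of all genes called in LS neurons, 408, ranged from 53 without BALB/c to 1031 without C57J replicate 2, with 666 by DESeq2, 1014 without the filter, 179 with thinned nuclei and 101 without nude. In other neurons it ranged from 2 to 684 around 59, in astrocytes from 0 to 826 around 9, in oligodendrocytes from 0 to 1043 around 8, in OPCs from 13 to 417 around 28, and in microglia from 0 to 879 around 0. In LS neurons against other neurons it ranged from 2335 to 7242 around 3989. DESeq2 called 124, 90, 66 and 14 genes in other neurons, astrocytes, oligodendrocytes and microglia. Calcrl in microglia was 0.77 and ranged from -0.49 (without BALB/c) to 1.35. Crhr2 in c9 was 0.00506 with doublets kept and -0.16 to 0.14 with a library left out. Adcyap1r1 in c23 was -8.8e-05 with thinned nuclei and -0.17 to 0.39 with a library left out, and between neurons and glia it was -0.14 without TMM and -0.0095 thinned. Between LS and other neurons, Pth1r ranged from -0.0182 to 0.28 and Vipr2 from -0.18 to 0.93. Vipr1 against glia was no longer called without either C57J library (0.93 and 0.95). Glp1r in LS against other neurons lost its call with DESeq2 (0.49), resolution 2 (0.41), no TMM (0.46), thinned nuclei (0.26) and without C57J replicate 1 (0.32) or 2 (0.44), and Pth2r lost it without C57J replicate 2 (1.04). The leading place was kept by 8 of 10 receptors with the mean over nuclei (Glp1r moved to c38 and Adcyap1r1 to astrocytes) and by 10 of 10 with doublets kept, where the rebuilt cluster holding most of a leading LS cluster's nuclei (91.5% to 98.6%) took its place. For Crhr1 only 52.2% of that cluster's nuclei came from c24, and its level was 56.1 CPM against 82.7. The share of LS neurons with a UMI of any of the 9 receptors was 14.7% at 2000 UMIs. The strain contrasts rest on 1 nude and 1 BALB/c library, and Vipr1, Vipr2 and Pth1r on few UMIs. Without C57J replicate 2, the strain contrasts also set batch 1 against batch 2.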
